A study of Homo sapiens with 4 samples.

Results

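The cancer-testis antigen families described here are the MAGEA, MAGEB, MAGEC, GAGE, PAGE, XAGE, SSX and CSAG genes together with CTAG2, CTAG1B, PRAME, SPANXB1, CT45A1, BAGE, SYCP1 and CTCFL. A probe set of the array counted as a member when its platform annotation gave 1 gene symbol and that symbol began with a family name followed by a digit or letter, or matched one of the single genes. Of 33297 probe sets, 41 met this rule and stood for 38 genes. Another 30 probe sets named a gene of these families together with other genes, mostly near-identical copies but in 1 case CTCFL with SP100 and HMGB1, and for 34 genes they were the only probe sets. These shared probe sets are described apart, since a value cannot be given to 1 of their genes. All GAGE genes, CTAG1B and CT45A1 were reached only through shared probe sets, and no probe set carried the symbol BAGE.

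Cancer-testis antigens are proteins made in male germ cells and, in adult tissue outside the testis and placenta, mainly in tumors. Most of their genes lie in multicopy clusters on the X chromosome, and in somatic cells their promoters are silenced by DNA methylation, so that tumor cells that lose this methylation can switch them on. MAGE proteins bind RING-type ubiquitin ligases and steer them to substrates, and many members of the families are recognized by T cells when presented on tumor cells.

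The array data compared PC-3-BM, a derivative of the human prostate cancer line PC-3 taken from bone metastases in nude mice and labelled as strongly metastatic, with parental PC-3, labelled as poorly metastatic. There were 2 arrays of each line. Per the study's methods both lines carried a luciferase and green fluorescent protein reporter, and PC-3-BM is a single derivative line, so that what sets it apart from PC-3 cannot be told apart from what would set apart any other derivative. The labels describe growth in mice and the methods describe culture, and which state the RNA came from is not settled by them. Whether the 2 arrays of a line came from independent cultures is not stated. The p-values therefore speak only of array-to-array scatter, part or all of which may be technical.

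The values were log2 expression levels after robust multichip averaging (RMA), a method that corrects the background, equalizes the arrays and summarizes the probes of each probe set. Array medians lay between 6.66 and 6.72, and the correlation of the 2 arrays over all probe sets was 0.996 within PC-3-BM and 0.997 within PC-3. No depth is defined for arrays, and 2 arrays per line limit the precision. Keratin 8 (KRT8) stood at 8.83 and 9.05 in PC-3-BM and at 11.02 and 10.93 in PC-3, and of 8 epithelial markers measured 5 were lower in PC-3-BM and none higher. Calls are those of the limma test given below, which called 23.2% of all probe sets, 11.6% higher and 11.6% lower. The prostate factor HOXB13 averaged 9.44 in PC-3-BM and 10.35 in PC-3 and was lower, the only call among 3 androgen-responsive genes measured. Over 9 blood cell markers the mean levels ran between 3.93 and 11.38 in PC-3-BM and between 3.75 and 10.66 in PC-3, with only the lysosomal marker CD68 called higher. Over 9 stromal, bone and endothelial markers the mean levels ran between 3.75 and 10.71 in PC-3-BM and between 3.56 and 10.87 in PC-3. The brightest in both lines, the endothelial receptor KDR, was not called. LUM and PECAM1 were called higher, with mean levels of 4.10 and 6.78 in PC-3-BM against 3.56 and 6.33 in PC-3, where LUM was the dimmest of the 9. The part of these cell types in the results below was not tested.

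A difference of more than 1 on the log2 scale was seen in 4 of the 41 member probe sets (3 genes, CSAG1, MAGEB2 and SPANXB1), each higher in PC-3-BM, and in 973 of all 33297 probe sets in either direction. By limma's moderated test, with p-values adjusted by Benjamini-Hochberg over all 33297 probe sets and a call at an adjusted p under 0.05, 7 of the 41 member probe sets were higher in PC-3-BM, 3 were lower and 31 were not called. The called share of 24.4% stood beside 23.2% of all probe sets, of which 11.6% were higher and 11.6% lower, and beside 29.3% of the 19460 probe sets with 1 symbol. The share of members called was therefore near the background. The median difference (PC-3-BM minus PC-3) over the members was −0.02 on the log2 scale, as it was over all probe sets, while single members ranged from −0.47 to 3.19. All 10 called members had values that did not overlap between the lines, as did 62.8% of all probe sets. Because SPANXB1 is represented by a pair of probe sets with identical values, the 7 higher probe sets stood for 6 genes.

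**Figure D1:**
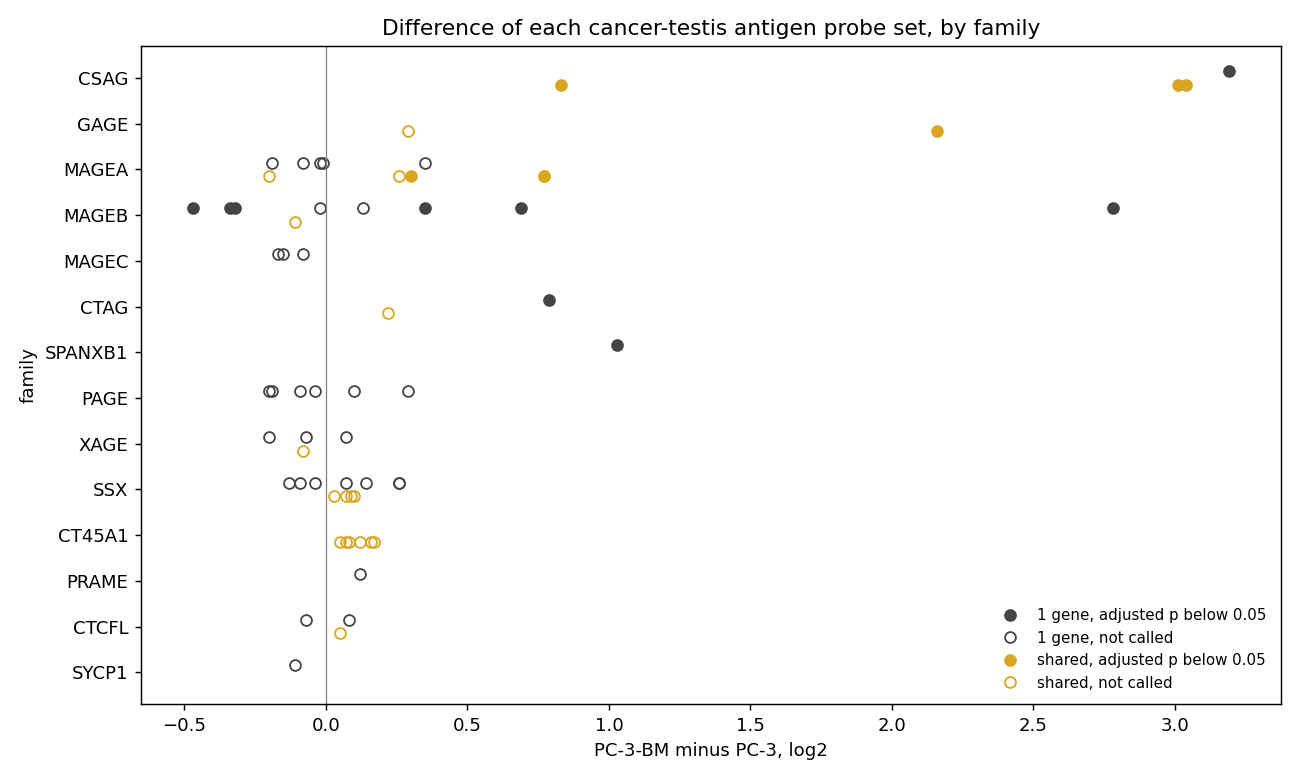
Difference between the mean log2 levels of PC-3-BM and PC-3 (x axis) for each cancer-testis antigen probe set with distinct values, arranged by family (y axis). Dark symbols are probe sets of 1 gene and yellow symbols shared ones, filled where limma's adjusted p was under 0.05. The CSAG probe sets reached 3.19, MAGEB2 2.78 and a shared GAGE probe set 2.16, while MAGEC, PAGE, XAGE, SSX, CT45A1, PRAME, CTCFL and SYCP1 stayed within 0.29 of 0. The probe set that names both CSAG4 and MAGEA12 is drawn under CSAG.

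CSAG1, a chondrosarcoma-associated gene in the MAGEA cluster on the long arm of the X chromosome, showed the largest difference of the 41 members. It stood at 10.17 and 10.07 in PC-3-BM and at 6.83 and 7.02 in PC-3. Both PC-3-BM arrays lay far above both PC-3 arrays, a difference of 3.19 (SE 0.10) or 9.16-fold with a limma adjusted p of 0.001003. The sister genes CSAG2, CSAG3 and CSAG4 had only shared probe sets, and the one that names CSAG4 and MAGEA12 is given with the MAGEA genes below. The one that names CSAG2, CSAG3 and CSAG1 stood at 8.94 and 8.87 in PC-3-BM and at 5.96 and 5.83 in PC-3, and the one that names CSAG2, CSAG4, CSAG3 and CSAG1 at 8.84 and 8.79 in PC-3-BM and at 5.84 and 5.70 in PC-3. These probe sets were higher in PC-3-BM by a measured 3.01 and 3.04 on the log2 scale, each with a limma adjusted p of 0.0008331. Both read PC-3 below the 95th percentile of the olfactory receptor probe sets (6.09 and 6.05 on the PC-3 arrays), a background reference explained below. In this fit they alone of the families, members and shared ones together, passed both thresholds named in the methods (an adjusted p under 0.001 and an absolute log2 difference over 2), which 17 of all 33297 probe sets passed, and CSAG1 narrowly missed the first of them. With the arrays centred on their medians CSAG1, MAGEB2 and a GAGE probe set passed as well, with limma adjusted p of 0.0004, 0.000465 and 0.000777.

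The genes next to CSAG1 moved by smaller amounts and not all in one direction. Per the RefSeq gene table the order along the chromosome is MAGEA10, GABRA3, GABRQ, MAGEA3, CSAG2, MAGEA2B, CSAG1, MAGEA12, CSAG4, MAGEA2, CSAG3, MAGEA6 and CETN2. The GABA receptor subunit gene GABRA3 stood at 9.43 and 9.32 in PC-3-BM against 8.00 and 8.01 in PC-3, 2.58-fold higher (limma adjusted p = 0.001735). A second GABA receptor gene, GABRQ, stood at 6.95 and 6.56 in PC-3-BM against 5.48 and 5.59 in PC-3, a measured difference of 1.22 (limma adjusted p = 0.007273). The PC-3 values of GABRQ lay below the olfactory receptor reference. No array of PC-3-BM overlapped one of PC-3 for either gene. Another, GABRE, on the far side of MAGEA10, differed by −0.01 (limma adjusted p = 0.9683), and all were chosen after their values were seen. Beyond the cluster the centrin gene CETN2 was lower in PC-3-BM by 0.38 on the log2 scale (limma adjusted p = 0.03151), and MAGEA10 on the other side differed by −0.19 (adjusted p = 0.2391). Of the 10 nearest measured protein-coding genes outside the families, 5 on each side of CSAG1, 2 were higher (GABRA3 and GABRQ), 2 lower (CETN2 and ZNF185) and the rest not called, with a median of −0.04. Over all probe sets 11.6% were called higher and 11.6% lower.

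**Figure D2:**
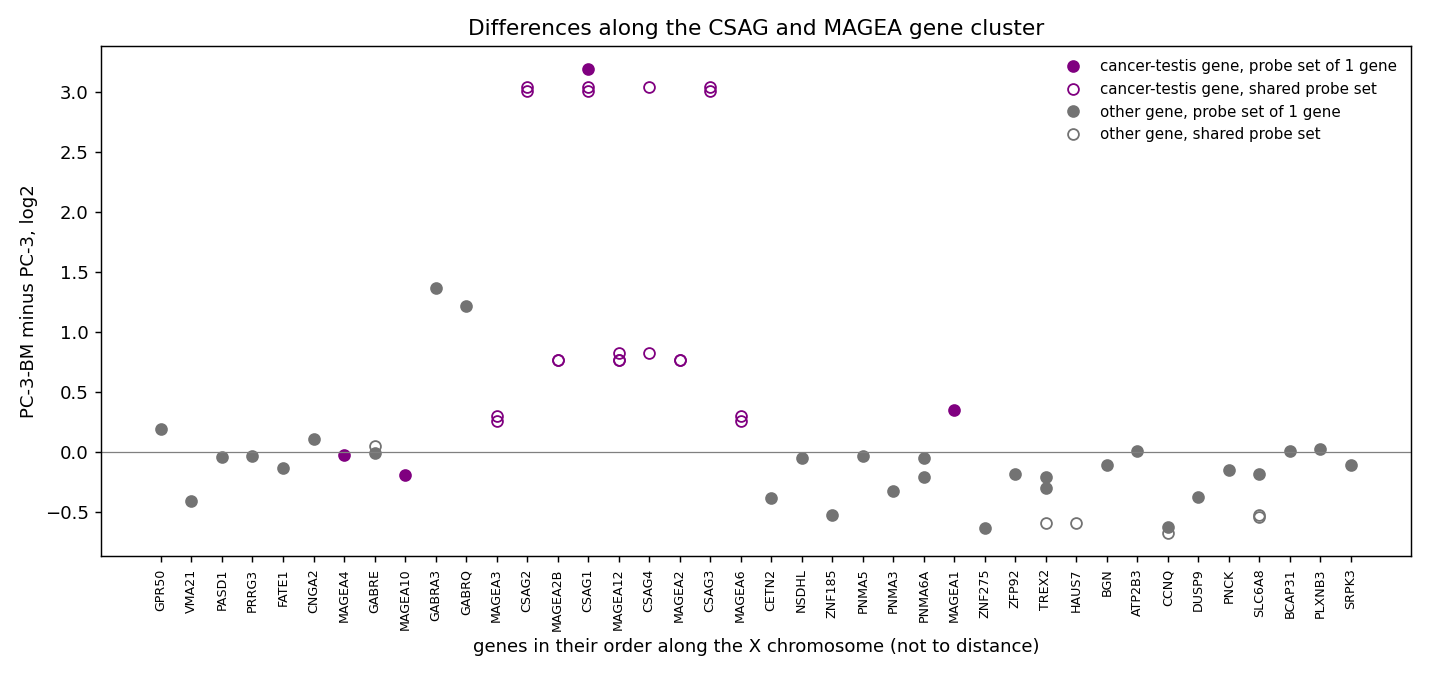
Difference between PC-3-BM and PC-3 in log2 (y axis) for genes in their order along the X chromosome (x axis, not to distance), with cancer-testis genes in purple and other genes in grey. Filled symbols are probe sets of 1 gene and open symbols shared ones, drawn at each gene they name. CSAG1 stands at 3.19 by its own probe set. The open symbols near 3 at the CSAG genes come from shared probe sets that also name CSAG1. Shared probe sets drawn at MAGEA2B, MAGEA12 and MAGEA2 stand at 0.77 to 0.83, and GABRA3 and GABRQ at 1.37 and 1.22. The genes drawn from CETN2 to the right edge, SRPK3, stand at or below 0.03, other than MAGEA1 at 0.35. CSAG4 also has a symbol at 0.83, from the probe set it shares with MAGEA12.

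CSAG1 and MAGEA12 start back to back on opposite strands, and so do CSAG3 and MAGEA2. Promoter windows of 300 bases, 250 before and 50 after each annotated start, were taken from RefSeq (GRCh38.p14), in which 60 of the 72 genes of the families on the array had a window. The window of CSAG1 (chrX:152733672-152733971, minus strand) shares 240 bases with one of the 2 MAGEA12 windows. It is shown with that of MAGEB2 (chrX:30215313-30215612, plus strand) because these were the 2 members with the largest differences, and the capitals mark the letters CCGGATGTG on either strand, with at most 1 difference.
CSAG1: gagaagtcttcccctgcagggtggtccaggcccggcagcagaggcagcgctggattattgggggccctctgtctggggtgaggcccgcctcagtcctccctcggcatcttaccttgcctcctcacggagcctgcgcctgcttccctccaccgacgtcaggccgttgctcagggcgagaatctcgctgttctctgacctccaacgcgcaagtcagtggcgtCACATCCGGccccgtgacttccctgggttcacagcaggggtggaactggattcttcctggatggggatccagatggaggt
MAGEB2: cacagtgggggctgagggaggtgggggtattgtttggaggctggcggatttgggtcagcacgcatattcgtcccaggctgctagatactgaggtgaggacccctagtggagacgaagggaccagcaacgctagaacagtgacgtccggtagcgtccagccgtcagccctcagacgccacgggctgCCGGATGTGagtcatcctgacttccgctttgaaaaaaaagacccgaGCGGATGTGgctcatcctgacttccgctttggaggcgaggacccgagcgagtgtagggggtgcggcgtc
The 9 letters were picked after the sequences had been seen. They contain CCGGAT, a core of the kind that ETS transcription factors bind, and methylation of the CpG in such a core is known to hinder ETS factors. In CSAG1 the copy lies on the opposite strand and begins 30 bases before the start. MAGEB2 has a full copy 65 bases before the start and a second copy 19 bases before it with the difference C1G, counted from 1 at the 5′ end of the 9 letters. The window of CSAG1 held 16 CpG dinucleotides and that of MAGEB2 held 21, against a median of 14 over all 35116 windows.

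MAGEA12, MAGEA2 and MAGEA3, from the same cluster as CSAG1, and the more distant MAGEA4 are shown over 60 bases around the same letters, for comparison of the copies. They lie at chrX:152733725-152733784, plus strand for MAGEA12, chrX:152753863-152753922, minus strand for MAGEA2, chrX:152698688-152698747, plus strand for MAGEA3 and chrX:151912434-151912493, plus strand for MAGEA4.
MAGEA12: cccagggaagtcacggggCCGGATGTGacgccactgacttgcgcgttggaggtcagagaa
MAGEA2: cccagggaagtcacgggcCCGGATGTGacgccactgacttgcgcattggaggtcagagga
MAGEA3: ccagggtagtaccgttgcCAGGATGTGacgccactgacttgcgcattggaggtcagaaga
MAGEA4: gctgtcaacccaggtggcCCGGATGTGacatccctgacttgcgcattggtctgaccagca
The MAGEA12 stretch lies within the CSAG1 window, on the other strand, so the copies marked in CSAG1 and MAGEA12 are the same bases. The MAGEA2 stretch also occurs in the windows of MAGEA2B and, on the other strand, CSAG3, and the MAGEA3 stretch also occurs in that of MAGEA6. MAGEA3 and MAGEA6 carry the difference C2A within the 9 letters, which removes the CpG. A full copy stood in 19 of the 80 windows of the families (23.8%) and in 13 of their 60 genes, against 0.339% of all windows, while CCGGAA, the other ETS core, stood in 7.5% of the windows of the families and 17.2% of all windows. These windows are not independent. Those of MAGEA12 and CSAG1 overlap at the same site, as do those of MAGEA2 and CSAG3. MAGEA4 has several windows, and other windows belong to near-identical gene copies. Copies were found in MAGEA, MAGEB, MAGEC and CSAG genes and in none of the GAGE, PAGE, XAGE and SSX windows. Among the 6 genes with a full copy and a probe set of their own, CSAG1 and MAGEB2 were higher in PC-3-BM, and MAGEA4, MAGEA11, MAGEC1 and MAGEC2 were not called, with differences of −0.02, −0.08, −0.17 and −0.15. Of 25 such genes without a full copy, 2 were higher and 3 lower. Only 31 of the 38 genes with a probe set of their own had a window. CTAG2 and MAGEB17, both called higher, had none and are in neither count. Matches describe the letters only. The letters were picked after the sequences had been seen, and CSAG1 and MAGEB2 had been shown for their large differences. The shares and counts of copies are therefore a description and test nothing.

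MAGEA genes are the best known tumor antigens of the MAGE class. None of the 5 probe sets of 1 MAGEA gene was called by limma, with 1 at an unadjusted p under 0.05, and their median difference was −0.02. MAGEA1, the first human tumor antigen found by T cell recognition, stood at 6.60 and 6.53 in PC-3-BM and at 6.32 and 6.12 in PC-3, a difference of 0.35 (SE 0.09) with a limma adjusted p of 0.06008, and it passed the threshold in 5 of 11 other settings. MAGEA10 stood at 5.37 and 5.54 in PC-3-BM and at 5.71 and 5.58 in PC-3 and was not called. The values of both genes did not overlap between the lines, and those of MAGEA4, MAGEA8 and MAGEA11 did.

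Of the 7 shared probe sets that name MAGEA genes, 4 were called, all higher in PC-3-BM, beside 11.6% of all probe sets called higher. A pair that names MAGEA2B, MAGEA12 and MAGEA2 stood at 7.51 and 7.66 in PC-3-BM against 6.80 and 6.84 in PC-3, and at 7.41 and 7.56 in PC-3-BM against 6.70 and 6.74 in PC-3, a difference of 0.77 (SE 0.08) for each. The limma adjusted p was 0.005523 for each of them. Their values ran in parallel on all 4 arrays, so they may be in effect a single measurement among the 4 calls. The probe set that names CSAG4 and MAGEA12 stood at 7.11 and 7.22 in PC-3-BM and at 6.21 and 6.46 in PC-3, a difference of 0.83 (adjusted p = 0.009078 by limma). MAGEA3 and MAGEA6, whose products bind the ubiquitin ligase TRIM28, shared a pair of probe sets that came out on either side of the threshold. One stood at 9.23 and 9.22 in PC-3-BM and at 8.90 and 8.94 in PC-3 and was called (limma adjusted p = 0.03708), and the other stood at 8.98 and 9.00 in PC-3-BM and at 8.73 and 8.74 in PC-3 and was not (adjusted p = 0.05206). Their differences were 0.30 and 0.26, with an SE of 0.07 for each. MAGEA9 and MAGEA9B differed by −0.20 (adjusted p = 0.1304 by limma) through a pair of probe sets with identical values.

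MAGEB genes, which lie on the short arm of the X chromosome, had 6 of 8 probe sets called, 3 in each direction, with a median of 0.05, beside 23.2% of all probe sets and 29.3% of those with 1 symbol. With 1 array left out, MAGEB2 kept its call each time, MAGEB6 kept it in 1 of the 4 fits and the other 4 genes lost it. MAGEB2, a MAGE protein tied to the stress tolerance of germ cells and tumor cells, stood at 7.12 and 7.13 in PC-3-BM and at 4.24 and 4.45 in PC-3. It was higher in PC-3-BM, with a measured difference of 2.78 (SE 0.09) and a limma adjusted p of 0.001003. No fold is given, since both PC-3 arrays read it under 5.01, the lower quartile over the whole array, and under the 95th percentile of the olfactory receptor probe sets, genes that most cells outside the nose do not use. Below this olfactory receptor reference a level cannot be told from background. None of its 10 nearest measured genes outside the families was higher, 2 were lower and their median was −0.15, beside 11.6% of all probe sets called in each direction. MAGEB3, which lies beside MAGEB2, stood at 5.01 and 5.06 in PC-3-BM and at 4.84 and 4.98 in PC-3 and was not called (limma adjusted p = 0.3411, chosen after its values were seen).

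The other MAGEB calls were small. MAGEB6 stood at 6.20 and 5.90 in PC-3-BM and at 5.40 and 5.31 in PC-3, a measured difference of 0.69 (adjusted p = 0.01764 by limma), with 3 of the 4 values below the olfactory receptor reference. MAGEB17 stood at 7.87 and 7.76 in PC-3-BM and at 7.43 and 7.49 in PC-3, a difference of 0.35 (adjusted p = 0.03435 by limma). In both genes each PC-3-BM array lay above each PC-3 array. In the opposite direction, MAGEB16 stood at 4.56 and 4.45 in PC-3-BM and at 4.91 and 5.03 in PC-3, and it fell by 0.47 on the log2 scale (adjusted p = 0.01988 by limma). MAGEB5 and MAGEB10 fell by 0.34 and 0.32 on the log2 scale, with limma adjusted p of 0.04933 and 0.04688. The PC-3-BM values of these 3 genes ran from 4.21 to 4.56 and their PC-3 values from 4.50 to 5.03, in the lowest part of the scale for nearly all arrays.

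GAGE genes form a tandem array of near-identical copies on the short arm of the X chromosome, and 2 shared probe sets read them. The probe set that names 10 genes, GAGE10 among them, stood at 6.56 and 6.36 in PC-3-BM and at 4.41 and 4.18 in PC-3. It was higher in PC-3-BM (measured difference 2.16, SE 0.12, limma adjusted p = 0.001735), and no fold is given, since its PC-3 values lay below the same olfactory receptor reference. The other, which names 12 genes, stood at 8.96 and 8.81 in PC-3-BM and at 8.59 and 8.61 in PC-3, and its difference of 0.29 was not called (adjusted p = 0.06492 by limma). Whether the differences of the 2 probe sets are unequal was not tested. Of the 13 GAGE genes named by either, 9 are named by both. GAGE10 is named by the first probe set only, and GAGE12B, GAGE4 and GAGE1 by the second only.

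CTAG2 (LAGE-1), a close relative of the T cell antigen NY-ESO-1, was higher in PC-3-BM. It stood at 9.03 and 9.16 in PC-3-BM and at 8.39 and 8.22 in PC-3, 1.73-fold higher (difference 0.79, SE 0.09, limma adjusted p = 0.006983). The CTAG1A, CTAG2 and CTAG1B shared probe sets, a pair with identical values, stood at 7.55 and 7.55 in PC-3-BM and at 7.32 and 7.34 in PC-3 and were not called (adjusted p = 0.08293 by limma). Of the 10 nearest genes outside the families, none was higher than in PC-3 and 5 were lower, among them the telomerase cofactor DKC1 with a difference of −0.96. Lower calls made up 11.6% of all probe sets. Of the 692 probe sets of 1 X-linked gene outside the families, 162 were lower and 48 higher. SPANXB1, a sperm nuclear protein gene on the X chromosome, stood at 5.93 and 5.77 in PC-3-BM and at 4.92 and 4.71 in PC-3. It was higher in PC-3-BM (measured difference 1.03, SE 0.11, limma adjusted p = 0.005354), and its arrays did not overlap between the lines. All 4 values lay below the olfactory receptor reference, so no fold is given.

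**Figure D3:**
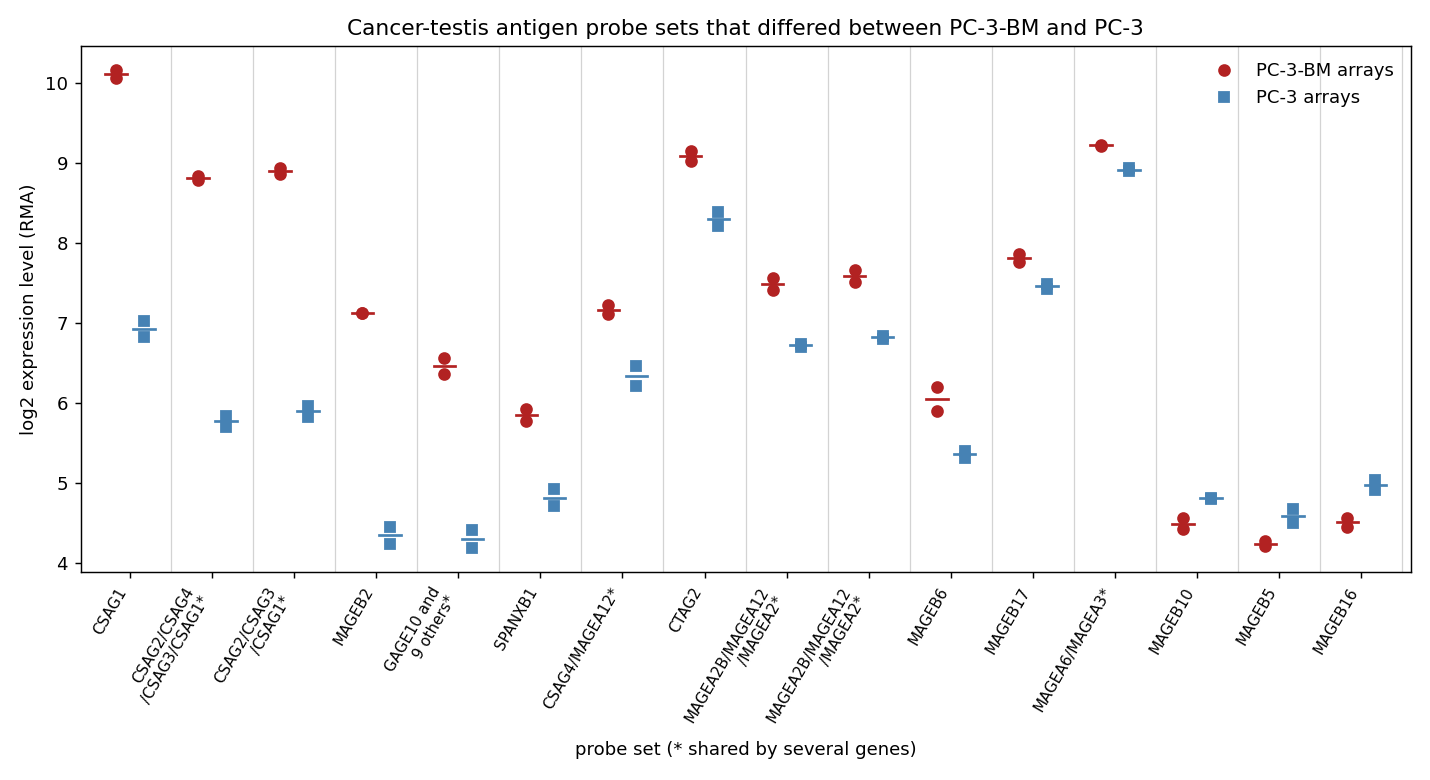
Log2 expression level (y axis) of each called cancer-testis antigen probe set (x axis, ordered by difference, asterisks for shared probe sets) on the 2 PC-3-BM arrays (circles, left of each pair) and the 2 PC-3 arrays (squares, right), with lines at the means. CSAG1 stands near 10.12 in PC-3-BM against 6.92 in PC-3, and the MAGEB10, MAGEB5 and MAGEB16 arrays of PC-3-BM all lie below those of PC-3.

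No member was called in the remaining families, and no probe set of theirs, shared ones included, had an unadjusted limma p under 0.05. PRAME, the substrate receptor of a cullin ubiquitin ligase and an antigen of melanoma, stood at 7.36 and 7.54 in PC-3-BM and at 7.28 and 7.37 in PC-3, with overlapping arrays (limma adjusted p = 0.4187). CTCFL (BORIS), the germ cell relative of the insulator protein CTCF, stood at 7.43 and 7.28 in PC-3-BM and at 7.29 and 7.25 in PC-3 by one probe set and differed by −0.07 by the other. SYCP1, a protein of the synaptonemal complex that joins chromosomes in meiosis, stood at 3.31 and 3.29 in PC-3-BM and at 3.43 and 3.40 in PC-3. These 3 genes thus gave no call in either direction.

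The MAGEC median was −0.15 over 3 probe sets, with MAGEC1 at −0.17 and MAGEC2 at −0.15. The PAGE median was −0.07 over 6 probe sets, and PAGE2B at 0.29 and PAGE5 at −0.20 differed most, the PAGE2B value resting on 1 PC-3-BM array at 5.28 beside another at 4.80. The XAGE median was −0.07 over 4 probe sets, and XAGE3 and XAGE5 differed most, by −0.20 and 0.07. The SSX genes, which are the partners of SS18 in the fusions of synovial sarcoma, had a median of 0.07 over 7 probe sets, led by SSX1 at 0.26. One of the 7, SSX2IP, met the letters of the rule but is a gene of chromosome 1 that encodes a protein that binds SSX2, and without it the SSX median was 0.02. With SSX2IP included, the SSX median was 0.27 without PC-3 array 1 and −0.05 without PC-3 array 2. The 6 shared CT45 probe sets, all of which name CT45A1, differed by 0.05 to 0.17, and the adjusted p of none was under 0.2865. With an SE of 0.07 to 0.17 for the single members of these families, small differences could not be resolved with 2 arrays per line.

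RMA gives no detection call, so each array's members were also read against the 95th percentile of 381 probe sets of olfactory receptor genes, which most cells outside the nose do not use. Probes differ in affinity, and this reference orders no gene against another. On all 4 arrays 11 member probe sets lay above it, namely CSAG1, CTAG2, CTCFL (1 probe set), MAGEA1, MAGEA8, MAGEB17, PAGE5, PRAME, SSX2IP, SSX8P and XAGE3. MAGEB2 was the only member above it on both PC-3-BM arrays and on neither PC-3 array, and MAGEB6 exceeded it on 1 PC-3-BM array alone. The other 28 lay below it on every array, SPANXB1, MAGEB5, MAGEB10 and MAGEB16 among them. By array, 13 and 12 members lay above the percentile in PC-3-BM, against 11 and 11 in PC-3.

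Of the 41 members, 36 lie on the X chromosome, and they hold all 10 calls, 7 higher and 3 lower. The called share of these 36 was 27.8%, beside 23.2% of all probe sets. Of the other 692 probe sets of 1 X-linked gene 30.3% were called, with 48 higher and 162 lower in PC-3-BM and 482 not called. Their median was −0.11, against −0.03 for the X-linked members. These counts are given as a description, since genes are not replicates.

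Other genes of the same biology were read from lists by their brightest probe set. The shares called are to be read against the 23.2% of all probe sets and the 29.3% of those with 1 symbol. Of 56 further cancer-testis genes measured, 2 were higher and 5 lower (12.5% called), with a median of −0.04. The decoy receptor gene IL13RA2 was the largest, at 5.73 and 5.60 in PC-3-BM and at 7.35 and 7.51 in PC-3, and it fell by 1.76 on the log2 scale (limma adjusted p = 0.00163). The sperm genes TSGA10 and CABYR also fell, by 0.81 and 0.58. None of the 5 PRAME relatives, the brightest being PRAMEF8 and PRAMEF20, was called. Of 21 germ cell markers 2 were higher (9.52% called), ACR and TDRKH, and the germ cell RNA helicase DDX4, chosen after its values were seen, averaged 4.27 in PC-3-BM and 4.06 in PC-3 and was not called. Of 23 meiotic chromosome genes (17.4% called) REC8, a cohesin subunit, was higher by 0.67, and 3 were lower, led by MND1 and TRIP13.

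A list of promoter silencing and germline gene control held 31 measured genes, among them the TET enzymes, which act against DNA methylation. None of the 31 was higher in PC-3-BM and 8 were lower, TET1 among them, a called share of 25.8%. Of all probe sets 11.6% were lower and 11.6% higher, 23.2% in either direction. Whether the list differs from the other genes was not tested. UHRF1, which brings the maintenance DNA methyltransferase to newly copied DNA, stood at 8.54 and 8.76 in PC-3-BM and at 9.66 and 9.73 in PC-3, and it fell by 1.05 on the log2 scale (limma adjusted p = 0.004432). The DNA demethylation enzyme TET1 fell by 0.88, and the chromatin remodeler HELLS by 0.73. DNMT1 and DNMT3A, named after their values were seen, averaged 10.05 and 7.21 in PC-3-BM against 10.24 and 7.49 in PC-3 and were not called. Of 17 ubiquitin ligase partners and substrates of MAGE proteins 4 were higher and 2 lower (35.3% called). The cullin CUL4A stood at 8.89 and 8.86 in PC-3-BM and at 7.91 and 8.04 in PC-3, higher by 0.90 (limma adjusted p = 0.003732), and the AMPK subunit PRKAA1, a known target of MAGEA3 and MAGEA6 with TRIM28, was higher by 0.64. TRIM28 itself, chosen after its values were seen, averaged 10.91 in PC-3-BM and 10.93 in PC-3. Of 9 MAGE relatives that are used in many tissues, MAGED2 was higher by 0.44, and MAGEF1 and MAGEE1 fell by 0.62 and 0.40 on the log2 scale.

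The calls of CSAG1, MAGEB2 and SPANXB1 held when any 1 of the 4 arrays was left out, and the others did not all hold. With 1 array left out, 4 to 6 of the 10 calls remained. CTAG2 missed the threshold only without PC-3 array 2 (limma adjusted p = 0.0512), and MAGEB6 missed it without PC-3-BM array 1, PC-3 array 1 or PC-3 array 2. MAGEB5, MAGEB10, MAGEB16 and MAGEB17 were not called in any of these 4 fits. Of the shared probe sets, the called MAGEA3 and MAGEA6 one was lost in all 4 fits, with limma adjusted p between 0.117 and 0.155, and the CSAG4 and MAGEA12 one without PC-3-BM array 2 (limma adjusted p = 0.0501). The other 5 called shared probe sets kept their calls in all 4 fits.

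**Figure D4:**
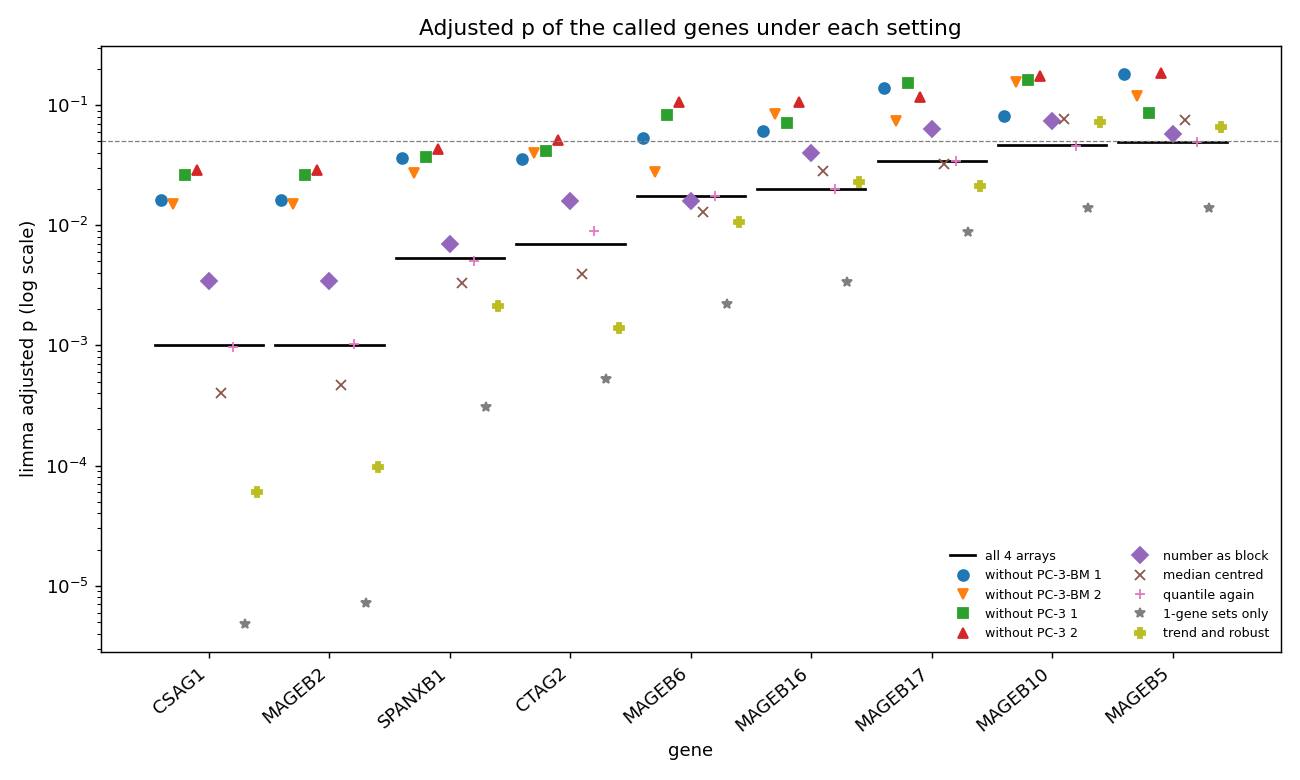
Limma adjusted p (y axis, log scale) of each called member gene (x axis) with all 4 arrays (black line) and under other settings (symbols), among them each array left out. The dashed line marks 0.05. CSAG1, MAGEB2 and SPANXB1 stay under it throughout, and MAGEB5, MAGEB10, MAGEB16 and MAGEB17 rise above it with any array left out.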

How the data were processed

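RNA from PC-3-BM and PC-3 cells, 2 arrays of each line, was hybridized to Affymetrix Human Gene 1.0 ST arrays. The deposited table holds log2 values that the authors made from the array images by robust multichip averaging (RMA), background correction and normalization included. The submitters' processing notes name RMA, R 3.2 and limma 3.24, and a genome build is not given in the sources used here. Per the labels the array numbers run 1 and 2 in each line. Genes were named through the platform annotation, which gives 1 symbol for 19460 of 33297 probe sets, several for 1754 and none for 12083, and all 41 member probe sets were matched to the RefSeq gene table by gene ID.

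The deposited log2 values were tested without further normalization with limma 3.58.1 in R 4.3.3, by lmFit and eBayes with default settings on the contrast PC-3-BM minus PC-3. P-values were two-sided and adjusted by Benjamini-Hochberg over all probe sets. With 2 against 2 arrays an exact permutation test cannot go below 0.333, so single genes were not tested that way. The procedure was tested on simulated data. Alternatives left out each array, blocked on the array number, rescaled the arrays, filtered dim probe sets, restricted the fit to probe sets of 1 gene, or changed the variance moderation. Members and gene lists were chosen with earlier results of these data known. Named are all members listed singly by the rule, all called ones, the 2 with the largest difference in a family without calls, and up to 3 called genes of each companion list, or its 2 brightest where none was called. Any other gene named was chosen after its values were seen. Standard errors rest on 2 residual degrees of freedom and a prior of 2.88.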

Additional observations from a re-analysis of the deposited data

How the results depend on the processing

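The share of probe sets called depended most on the number of arrays. With 1 array left out, which leaves a line with a lone array assumed to vary like the other line, 2238 to 3854 probe sets were called, against 7717 with all 4. The member probe sets called higher in PC-3-BM then numbered 4 to 6 in place of 7, and those called lower 0 in place of 3. The 3 lower calls, MAGEB5, MAGEB10 and MAGEB16, also became 1 when the arrays were centred on their medians or the variance was moderated with a trend and robustly, and 0 when only probe sets with a mean above 5 or above the olfactory receptor percentile of 6.07 were fitted, since these 3 probe sets are then not tested. The olfactory receptor filter gave 4 higher members, MAGEA1 newly among them. It kept 3 of the 10 called members in the fit, and MAGEB2, SPANXB1 and MAGEB6 were not tested under it. Counting shared probe sets as well, without a filter, gave 14 higher. MAGEA1 was called higher after median centring, after quantile normalization once more, under either filter and among probe sets of 1 gene only, with limma adjusted p between 0.0179 and 0.0414.

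Over all probe sets, the number past both thresholds of the methods was 17. It was 0 with any array left out, 84 with the arrays centred on their medians, 29 after quantile normalization once more, 85 with means above 5, 87 with means above the olfactory receptor percentile, 83 with probe sets of 1 gene only, and 98 with trend and robust moderation. The cause was not tested.

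Nothing in the labels ties same-numbered arrays together, and their deviations from the line means correlated at −0.0174. With the array number as a block (replicate block), 6473 probe sets were called, 6 members were higher and 1 lower, and 0 probe sets passed the thresholds of the methods. The members that lost their calls were MAGEB5, MAGEB10 and MAGEB17. No named probe set changed direction past the threshold under any setting.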

Other observations

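Relatives of these families that the rule left out, chosen after their values were seen, included probe sets that were higher in PC-3-BM. Of 14 such probe sets 6 were called higher by limma's adjusted p and none lower, beside 11.6% of all probe sets in each direction. All 6 calls come from near-identical copies, 3 probe sets of BAGE2 and BAGE5 and 3 of SPANXA and its copies, a pair of which carried identical values. The B melanoma antigen genes BAGE2 and BAGE5 shared a probe set that stood at 6.41 and 6.47 in PC-3-BM and at 5.05 and 4.85 in PC-3, a measured difference of 1.49 (limma adjusted p = 0.002097). Its PC-3 values lay below the olfactory receptor reference. BAGE2 by itself stood at 8.63 and 8.62 in PC-3-BM and at 7.87 and 7.92 in PC-3, and BAGE5 by itself at 8.70 and 8.68 in PC-3-BM and at 7.93 and 7.95 in PC-3. All PC-3-BM arrays lay above all PC-3 arrays for these 3 probe sets, and near-identical copies keep them from being given to 1 gene with certainty. A probe set that names SPANXA2, SPANXC, SPANXD and SPANXA1, relatives of SPANXB1, stood at 6.27 and 6.30 in PC-3-BM and at 5.46 and 5.33 in PC-3 (measured difference 0.89, limma adjusted p = 0.003865). Here too the PC-3 values lay below that reference. Another that names SPANXC and SPANXD differed by 0.07 (adjusted p = 0.8582 by limma), with overlapping arrays, and none of SPANXN1, SPANXN3, SPANXN4 and SPANXN5 was called.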
